A study of Mus musculus with 6 samples.

Results

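The genes of the platelet-derived growth factor (PDGF) ligands and receptors were examined in cultured mouse hepatic stellate cells treated with a bile acid agonist before a neuropeptide. The 6 genes, Pdgfa, Pdgfb, Pdgfc, Pdgfd, Pdgfra and Pdgfrb, were taken by symbol from the 24940 genes of an exon count table. No cut on their values was used, but the choice was made with earlier results of these data known. In the first group, OCA+VIP, primary stellate cells of wild-type female C57BL/6JBomTac mice received 10 µM obeticholic acid (OCA), an agonist of the bile acid receptor FXR, on day 2 after isolation, and 500 nM vasoactive intestinal peptide (VIP), which raises cAMP through its receptors, 3 h later for another 3 h. In the second group, DMSO+VIP, the cells received the same volume of the vehicle DMSO (1:1000) in place of OCA, and the same VIP. Each group held 3 libraries of polyadenylated RNA, VIP was present in all 6, and no cells without VIP were analysed here. The labels give no age, nor whether the 3 libraries of each kind derive from different mice or cultures. The p-values therefore cover only library-to-library spread, and this may be technical.

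PDGF ligands are disulfide-linked dimers that bind receptor tyrosine kinases and join them in pairs, after which the receptors phosphorylate themselves and recruit enzymes and adaptors. PDGF-A and PDGF-C act mainly through the alpha receptor, PDGF-D mainly through the beta receptor, and PDGF-B binds both. In the liver, the beta receptor is a classical marker of stellate cells that increases when they become myofibroblasts, and PDGF-B from platelets, endothelial cells and macrophages is among their strongest mitogens.

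Total counts were 4534360 to 9947970 per OCA+VIP library and 2839110 to 4574160 per DMSO+VIP library, so depth differed between the groups. Low counts came in steps of about 6. Of the counts from 1 to 30, 37.5% to 56.7% with OCA+VIP and 56.3% to 58.2% with DMSO+VIP were multiples of 6 to within 0.5. The lowest share, 37.5%, was that of OCA+VIP library 2, where the steps were least clear. A count divided by 6 is given below as the number of fragments it would stand for if each step were a fragment. This was not tested. Levels are given as CPM, the count scaled to the column total. All 12 stellate cell markers had counts. Of the 11 that passed the filter on low counts, 3 rose and 2 fell by the edgeR test described below. That test called 5.72% of all tested genes as higher and 6.04% as lower. The summed level of the 12 was 903 to 1024 CPM with OCA+VIP and 759 to 969 CPM with DMSO+VIP. Hepatocyte markers moved with the groups: their sum over 10 genes was 239 to 398 CPM with OCA+VIP and 69.7 to 76.9 CPM with DMSO+VIP, 9 of the 10 rose, and Cps1 was at 0 in all libraries. The 5 cholangiocyte markers summed to 17.3 to 21.0 CPM with OCA+VIP and 6.16 to 14.9 CPM with DMSO+VIP, with Krt7 at 0. The part of hepatocyte or cholangiocyte RNA in the results below was not tested.

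RNA of the alpha receptor gene Pdgfra was higher with OCA+VIP, while RNA of the beta receptor gene Pdgfrb and of the ligand gene Pdgfa did not pass the test. The other 3 ligand genes, Pdgfb, Pdgfc and Pdgfd, had a count of 0 in all 6 libraries. Of the 6 genes, 3 passed the filter on low counts and 1 of these 3 was called higher (quasi-likelihood test of edgeR, p adjusted by Benjamini-Hochberg over 11286 genes, threshold 0.05). In the same comparison 11.8% of all tested genes were called, 5.72% as higher and 6.04% as lower.

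**Figure D1:**
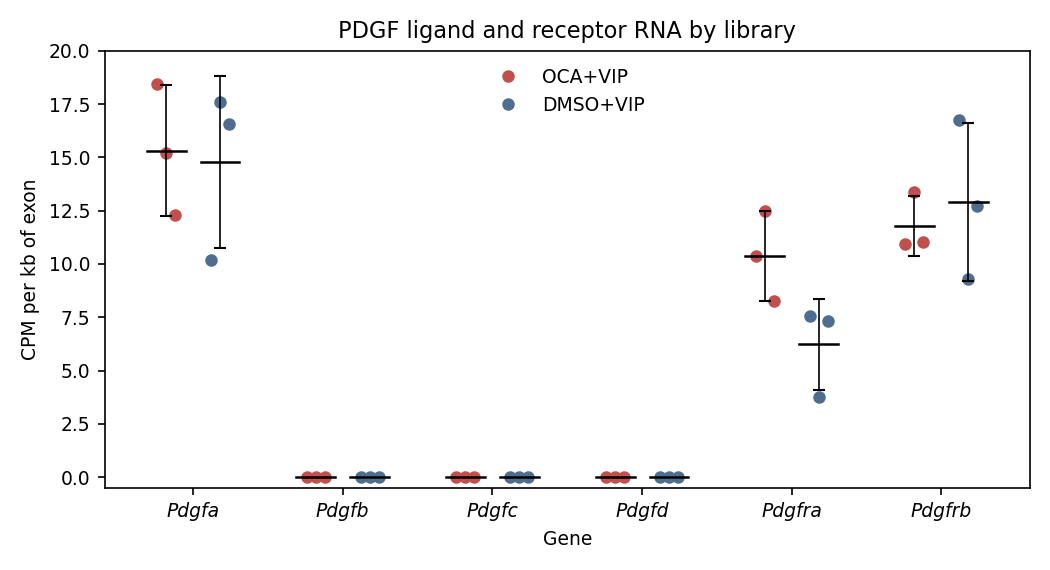
Level of each PDGF ligand and receptor gene in CPM per kb of exon. Points are single libraries (OCA+VIP left, DMSO+VIP right of each gene), black lines are means and error bars SD over 3 libraries. The Pdgfra points with OCA+VIP lie between 8.27 and 12.5, above those with DMSO+VIP between 3.78 and 7.57, while Pdgfrb and Pdgfa overlap and the other ligand genes are at 0.

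Pdgfra, which encodes the receptor for PDGF-A, PDGF-B and PDGF-C (chromosome 5, 75152251 to 75198206, plus strand, mm10), had 68.0, 82.1 and 54.3 CPM in OCA+VIP libraries 1 to 3, against 49.7, 24.8 and 48.2 CPM in DMSO+VIP libraries 1 to 3. Every OCA+VIP library was thus above every DMSO+VIP library, as for 16.8% of all tested genes. But the lowest OCA+VIP library lay close to the highest DMSO+VIP library. DMSO+VIP library 2, the shallowest, stood apart at the low end, and OCA+VIP library 2, the deepest, was the highest. Depth differed between the groups, and its part in the Pdgfra difference was not tested. The mean was 68.2 ± 13.9 CPM with OCA+VIP and 40.9 ± 14.0 CPM with DMSO+VIP (SD, n = 3 each). On the log2 scale the difference was 0.71 with an SE of 0.22 (adjusted p by edgeR = 0.037), a 1.63-fold difference with a 95% interval of 1.19 to 2.23. The call was lost on leaving out OCA+VIP library 1, OCA+VIP library 2 or DMSO+VIP library 2, with edgeR adjusted p of 0.13, 0.12 and 0.15, and without DMSO+VIP library 2 the log2 fold change was 0.47. The Pdgfra count of DMSO+VIP library 2 was 70.5, or 11.75 fragments, which gives an exact Poisson 95% interval of 12.7 to 43.6 CPM for counting error alone. In these bulk samples, a difference in the share of cells that express a gene and a difference in RNA per cell cannot be told apart.

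Pdgfrb, which encodes the receptor for PDGF-B and PDGF-D (chromosome 18, 61045150 to 61085067, plus strand), had 59.0, 72.1 and 59.3 CPM in OCA+VIP libraries 1 to 3, against 90.2, 50.2 and 68.4 CPM in DMSO+VIP libraries 1 to 3. The OCA+VIP values lay inside the range of the DMSO+VIP values, which held both the highest and the lowest library. The mean was 63.5 ± 7.48 CPM with OCA+VIP and 69.6 ± 20.02 CPM with DMSO+VIP (SD, n = 3 each), and the log2 fold change was -0.16 with an SE of 0.18 (adjusted p by edgeR = 0.65). The 95% interval of the difference ran from 0.69-fold to 1.17-fold, so a fall to 0.69-fold is within it.

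Because Pdgfra and Pdgfrb were counted in the same libraries, their ratio does not depend on library size or scaling. Per kb of exon, with 6570 bases for Pdgfra and 5388 for Pdgfrb, the log2 ratio of Pdgfra to Pdgfrb was -0.08, -0.10 and -0.41 in OCA+VIP libraries 1 to 3, against -1.14, -1.30 and -0.79 in DMSO+VIP libraries 1 to 3. The 2 groups of ratios did not overlap, and Pdgfra was below Pdgfrb in all 6 libraries. The mean log2 ratio was -0.20 ± 0.19 with OCA+VIP and -1.08 ± 0.26 with DMSO+VIP (SD, n = 3 each), a difference of 0.88, or a 1.84-fold higher ratio with OCA+VIP. The two-sided exact permutation test gave p = 0.1, which is the smallest p that 3 against 3 libraries allow, so this test cannot reach 0.05. On leaving out any 1 library the difference was 0.77 to 1.02, with no test. The ratio was computed from the same counts as the edgeR result of Pdgfra and is not independent of it.

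Put as a share of the RNA of both receptors per kb, Pdgfra made up 48.6%, 48.3% and 42.9% in OCA+VIP libraries 1 to 3, against 31.1%, 28.9% and 36.6% in DMSO+VIP libraries 1 to 3. In single libraries, counting error was wide beside this difference. Overlap of such intervals is a description and not a test of the difference. The exact (Clopper-Pearson) 95% interval of the lowest OCA+VIP share was 34.0% to 53.0%, and that of the highest DMSO+VIP share was 25.7% to 48.3%, so these 2 libraries were not separated at this depth. The interval of OCA+VIP library 2, 41.9% to 54.5%, lay above that of DMSO+VIP library 1, 22.8% to 40.5%, and every other pair of libraries across the groups had intervals that overlapped. These intervals and the limits for counts of 0 cover counting error only. They assume the step of 6 counts, which was least clear in OCA+VIP library 2. The mean share was 46.6 ± 3.21% with OCA+VIP and 32.2 ± 3.99% with DMSO+VIP (SD, n = 3 each). The summed level of both receptors was 22.2 ± 3.38 CPM per kb with OCA+VIP and 19.1 ± 5.66 CPM per kb with DMSO+VIP (SD, n = 3 each), a difference smaller than the spread between libraries.

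**Figure D2:**
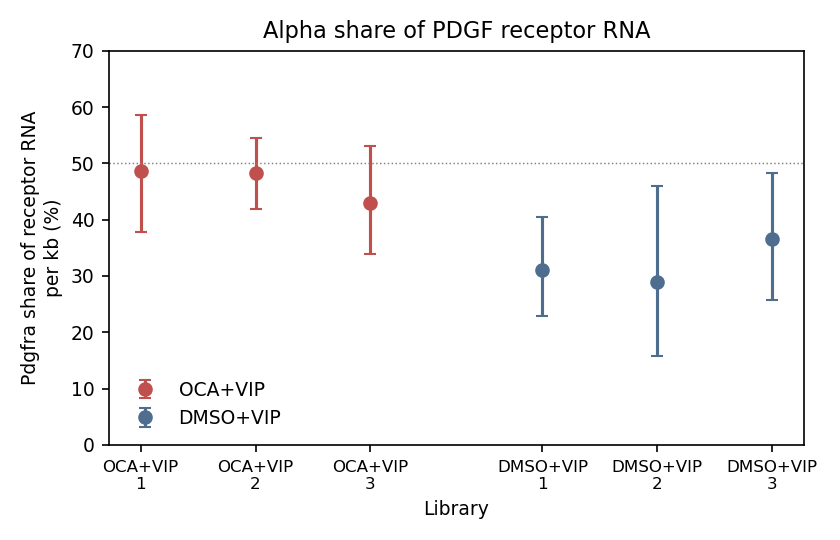
Pdgfra share of the RNA of both PDGF receptors, per kb of exon, in each library, with OCA+VIP on the left and DMSO+VIP on the right. Bars are exact binomial 95% intervals on fragments of 6 counts, and the dotted line marks equal levels. The OCA+VIP libraries lie at 42.9% to 48.6% and the DMSO+VIP libraries at 28.9% to 36.6%, with bars that overlap between the groups for every pair of libraries except OCA+VIP 2 and DMSO+VIP 1.

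Pdgfa, the gene of the PDGF-A chain and the only ligand gene with counts (chromosome 5, 138976972 to 138994953, minus strand), had 18.6, 15.4 and 12.4 CPM in OCA+VIP libraries 1 to 3, against 10.3, 17.8 and 16.7 CPM in DMSO+VIP libraries 1 to 3. The groups overlapped over most of their range. The mean was 15.5 ± 3.12 CPM with OCA+VIP and 14.9 ± 4.07 CPM with DMSO+VIP (SD, n = 3 each), and the log2 fold change was 0.05 with an SE of 0.35 (adjusted p by edgeR = 0.95). Its counts of 47 to 153 stand for 7.83 to 25.5 fragments a library, and the 95% interval of the difference, 0.63-fold to 1.71-fold, includes the 1.63-fold difference seen for Pdgfra. An antisense gene, 6330403L08Rik, covers 26.1% of the exon bases of Pdgfa in GENCODE, and whether counting used strand is not given in the sources used here. For Pdgfra the largest such overlap was 4.55%, with the antisense gene Gm42802, and for Pdgfrb there was none.

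The proximal promoters of Pdgfra and Pdgfa, which lie on the same chromosome and encode a receptor and its ligand, are shown because RNA of the first passed the test and RNA of the second did not. Each run covers 250 bases before and 50 after a RefSeq start (GRCm38.p6), read along the gene, for chr5:75152001-75152300 on the plus strand and chr5:138994895-138995194 on the minus strand. Capitals mark matches to the core cAMP response motif TGACG on either strand.
Pdgfra: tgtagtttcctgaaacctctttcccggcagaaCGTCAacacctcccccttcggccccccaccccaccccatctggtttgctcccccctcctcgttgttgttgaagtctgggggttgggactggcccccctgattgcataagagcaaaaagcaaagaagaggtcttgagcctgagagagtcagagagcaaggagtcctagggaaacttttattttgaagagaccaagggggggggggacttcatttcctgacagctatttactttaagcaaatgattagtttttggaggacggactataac
Pdgfa: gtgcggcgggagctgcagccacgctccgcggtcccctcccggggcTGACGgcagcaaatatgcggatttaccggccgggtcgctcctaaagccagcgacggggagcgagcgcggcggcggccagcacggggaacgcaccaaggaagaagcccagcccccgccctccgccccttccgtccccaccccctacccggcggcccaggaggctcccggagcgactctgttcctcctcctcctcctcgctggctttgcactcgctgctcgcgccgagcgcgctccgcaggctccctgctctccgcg
Each window holds 1 match, which starts 218 bases before the start in Pdgfra and 205 bases before it in Pdgfa. In Pdgfra the window as printed reads CGTCA, so TGACG lies on the other strand. Such a match occurs in 20.8% of 32851 RefSeq promoter windows of the same length. The full cAMP response element TGACGTCA, which contains this core and occurs in 1.79% of windows, was in neither. The nuclear receptor core motif AGGTCA (16.3% of windows) and the inverted repeat that FXR binds, made of that core, any 1 base and its reverse complement (0.00913% of windows), were also in neither. These matches describe the letters of the windows and were not tested as binding sites.

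Pdgfb (chromosome 15, 79995876 to 80014808), Pdgfc (chromosome 3, 81036416 to 81214040) and Pdgfd (chromosome 9, 6168486 to 6378845) had 0 counts in every library, as did 37.3% of the 24940 genes. A count of 0 in a group allows up to 3 fragments, or 18 counts over its 3 libraries, which corresponds to 0.887 CPM with OCA+VIP and 1.61 CPM with DMSO+VIP. Per kb of exon the limit is 0.303 CPM for Pdgfb, 0.253 for Pdgfc and 0.276 for Pdgfd with OCA+VIP. With DMSO+VIP the limits are 0.551 CPM per kb for Pdgfb, 0.460 for Pdgfc and 0.502 for Pdgfd. These limits lie at least 50.6-fold below the mean level of Pdgfa with OCA+VIP and at least 26.9-fold below it with DMSO+VIP. A difference between the groups in these 3 ligand genes was not detectable at this depth. Of the cell types known to make PDGF-B, 8 endothelial markers summed to 7.39 to 12.8 CPM with OCA+VIP and 0 to 6.67 CPM with DMSO+VIP, with Lyve1 at 0 in all libraries. The 5 platelet markers summed to 10.6 to 20.9 CPM with OCA+VIP and 10.7 to 15.8 CPM with DMSO+VIP, with Ppbp and Gp9 at 0. For 8 macrophage markers the sums were 28.3 to 41.0 CPM with OCA+VIP and 15.3 to 30.3 CPM with DMSO+VIP, with Vsig4, Timd4 and Ptprc at 0.

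By level per kb of exon, the order was the same in both groups, with Pdgfa first, Pdgfrb next and Pdgfra last of the genes with counts. With OCA+VIP these levels were 15.3 ± 3.09, 11.8 ± 1.39 and 10.4 ± 2.11 CPM per kb, and with DMSO+VIP 14.8 ± 4.03, 12.9 ± 3.72 and 6.23 ± 2.12 CPM per kb (SD, n = 3 each). With OCA+VIP, each gene overlapped its neighbour in this order. With DMSO+VIP, Pdgfa and Pdgfrb overlapped, and the 3 values of Pdgfra lay below those of both. The length used is that of 1 RefSeq transcript per gene, 1010 bases for Pdgfa, so a level per kb would shift if the cells used another isoform. Over both groups the 3 genes ranked 5495 for Pdgfa, 6100 for Pdgfrb and 7233 for Pdgfra among 15635 genes with counts.

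Other fibroblast types also carry PDGF receptors. Of 10 markers of portal fibroblasts or mesothelial cells, only Fbln2 passed the filter on low counts and it fell; Thy1, Msln and Upk3b were at 0 in all libraries, and the sum was 10.1 to 13.7 CPM with OCA+VIP and 34.2 to 59.8 CPM with DMSO+VIP. The 5 vascular smooth muscle markers summed to 217 to 243 CPM with OCA+VIP and 137 to 156 CPM with DMSO+VIP, with Smtn the only tested member, which rose, and Actg2 at 0. Acta2, a smooth muscle actin gene outside this list, went the other way. It had a mean of 22.8 CPM with OCA+VIP and 53.3 CPM with DMSO+VIP, a log2 fold change of -1.24 (edgeR adjusted p = 0.0041). The part of these cells in the Pdgfra result was not tested.

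As the measure of likeness, each gene's log2 CPM over the 6 libraries was centred on its own mean and the root mean square difference from a receptor gene was taken. It was taken over 9776 tested genes with a mean of at least 5 CPM, leaving out Gm, Rik, Mir, Snor and LOC symbols. Nearest to Pdgfra were Spred2, an inhibitor of the Ras-ERK pathway, at 0.086, Plekha5 at 0.14 and Cpne1 at 0.15, against a median of 0.57 over all genes compared. Spred2 and Plekha5 did not pass the test between the groups (edgeR adjusted p 0.062 and 0.16), while Cpne1 did (0.0099). Nearest to Pdgfrb were Mcub, a subunit of the mitochondrial calcium uniporter, at 0.055, the cell cycle inhibitor gene Cdkn1b at 0.073 and Snx12 at 0.086, against a median of 0.36. The difference between Pdgfra and Pdgfrb themselves was 0.47. With 6 libraries in 2 groups, such distances are a description of these libraries.

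Around the ligands and receptors, 80 genes of 6 lists were read from the same fit, and 70 were tested. Of these, 6 rose and 7 fell, and the other 57 missed the threshold, so 18.6% were called beside 11.8% of all tested genes. The lists were chosen with earlier results of these data known. The shares therefore cannot show whether these genes moved more often than others. The median log2 fold change was 0.02 over the lists and 0.00 over all tested genes.

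Among the proteins that process or bind PDGF ligands, 2 of 8 tested genes fell and none rose, and the median log2 fold change was -0.31. Sparc, a matricellular glycoprotein that binds PDGF-B, had 405 ± 24.0 CPM with OCA+VIP and 854 ± 34.4 CPM with DMSO+VIP (SD, n = 3 each), a log2 fold change of -1.09. Lrp1, an endocytic receptor that associates with the beta receptor, had 90.3 ± 21.1 CPM with OCA+VIP and 243 ± 91.3 CPM with DMSO+VIP (SD, n = 3 each), a log2 fold change of -1.44. The edgeR adjusted p was 3.0e-06 for Sparc and 1.6e-05 for Lrp1, and the groups did not overlap for either. Plau, whose protease can activate PDGF-D, the co-receptor gene Nrp1, the protease gene St14 and Furin, whose product cleaves PDGF-A and PDGF-B, did not pass the test (log2 fold changes 0.43, -0.67, -0.84 and 0.15). Cspg4 and Pcsk5 were too low to be tested.

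Of 21 genes for proteins that act next to the receptor, 2 rose and 1 fell, while 18 missed the threshold. Fyn, a Src family kinase, had 40.7 ± 9.76 CPM with OCA+VIP and 94.8 ± 14.1 CPM with DMSO+VIP (SD, n = 3 each), a log2 fold change of -1.23 (edgeR adjusted p = 8.1e-05). Pik3cb, a catalytic subunit of phosphoinositide 3-kinase, had 48.8 ± 0.751 CPM with OCA+VIP and 26.2 ± 3.87 CPM with DMSO+VIP (SD, n = 3 each), a log2 fold change of 0.88 (edgeR adjusted p = 0.0071). Shc1, an adaptor, had a log2 fold change of 0.38 (edgeR adjusted p = 0.041), and this call was lost on leaving out any 1 library other than OCA+VIP library 2 and with upper-quartile scaling (edgeR adjusted p from 0.065 to 0.17). The adaptor genes Grb2 and Crk, the Ras activator gene Sos1 and the regulatory subunit gene Pik3r2 did not pass the test, with log2 fold changes of 0.36, -0.28, 0.40 and -0.46.

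In the kinase cascades downstream, 2 of 13 genes fell, Mapk3 among them, and 11 did not pass the test. Mapk3, which encodes ERK1, had 52.5 ± 12.0 CPM with OCA+VIP and 83.1 ± 11.7 CPM with DMSO+VIP (SD, n = 3 each), a log2 fold change of -0.68 (edgeR adjusted p = 0.012). It was not called without OCA+VIP library 1, OCA+VIP library 3 or DMSO+VIP library 1 (edgeR adjusted p 0.073, 0.069 and 0.073). Akt1, a survival kinase gene, and Map2k2, which encodes a kinase that activates ERK, had log2 fold changes of 0.27 and 0.16, neither past the threshold.

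Among 9 genes whose products dampen receptor signalling, Ptpn12, a tyrosine phosphatase, rose and 8 did not pass the test. Ptpn12 had 210 ± 12.3 CPM with OCA+VIP and 112 ± 17.5 CPM with DMSO+VIP (SD, n = 3 each), a log2 fold change of 0.89 (edgeR adjusted p = 0.00010). The phosphatase genes Ptpn1 and Ptpn2, the cytokine signalling suppressor gene Socs1 and the ubiquitin ligase gene Cbl had log2 fold changes of 0.41, 0.30, 1.27 and 0.42. The value of Socs1 rests on 169 counts over all libraries, with means of 7.28 CPM with OCA+VIP and 3.13 CPM with DMSO+VIP and an SE of 0.73.

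Of 11 tested genes that growth factors induce in fibroblasts, and many other stimuli too, 3 rose and 1 fell, while 7 missed the threshold, and the median log2 fold change was -0.07. The immediate early genes Egr1, Fosb and Fos had log2 fold changes of 1.55, 1.24 and 0.92 (edgeR adjusted p 6.6e-07, 1.2e-05 and 0.0020), and the chemokine gene Ccl7 of -1.12 (1.1e-05). Ier2, Ccl2, Junb and Cxcl1 did not pass the test, with log2 fold changes of 0.43, -0.34, -0.21 and -0.25, and Has2, a hyaluronan synthase gene, had 0 counts. The list therefore moved both ways.

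The last list held VEGF ligands, receptor kinases related to the PDGF receptors and ligands of those kinases. Of its 8 tested genes, 1 fell, a ligand of such a kinase, and 7 did not pass the test. Csf1, the ligand of the macrophage receptor kinase CSF1R, had 461 ± 20.1 CPM with OCA+VIP and 700 ± 41.8 CPM with DMSO+VIP (SD, n = 3 each), a log2 fold change of -0.62 (edgeR adjusted p = 0.0015). Flt3l, Kitl, Vegfb and Flt1 had log2 fold changes of -2.51, 0.46, -0.23 and 0.55 without passing the test. The value of Flt3l rests on 94 counts over all libraries, with means of 1.26 CPM with OCA+VIP and 6.92 CPM with DMSO+VIP and an SE of 0.91. Kit, the receptor kinase closest in structure to the PDGF receptors with CSF1R and FLT3, had 6 counts in all, and Flt3 and Pgf had 0.

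**Figure D3:**
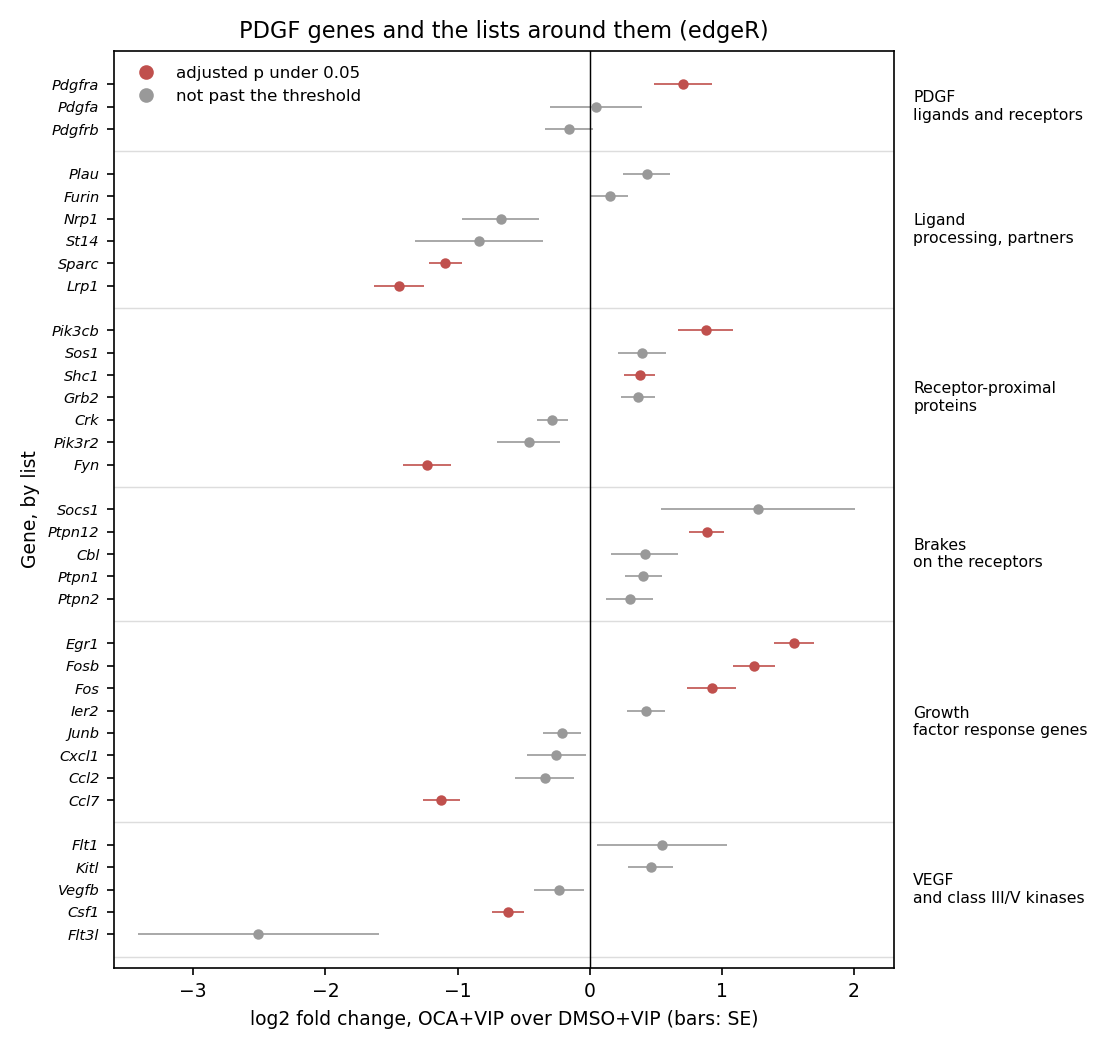
Log2 fold change of OCA+VIP over DMSO+VIP for the 3 tested PDGF genes and, from each list other than the kinase cascades, the genes past the threshold and up to 4 others of smallest p, by edgeR, with bars of 1 SE. Red points passed an adjusted p of 0.05. Pdgfra stands at 0.71, and the called genes of the lists shown run from -1.44 (Lrp1) to 1.55 (Egr1).

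**Figure D4:**
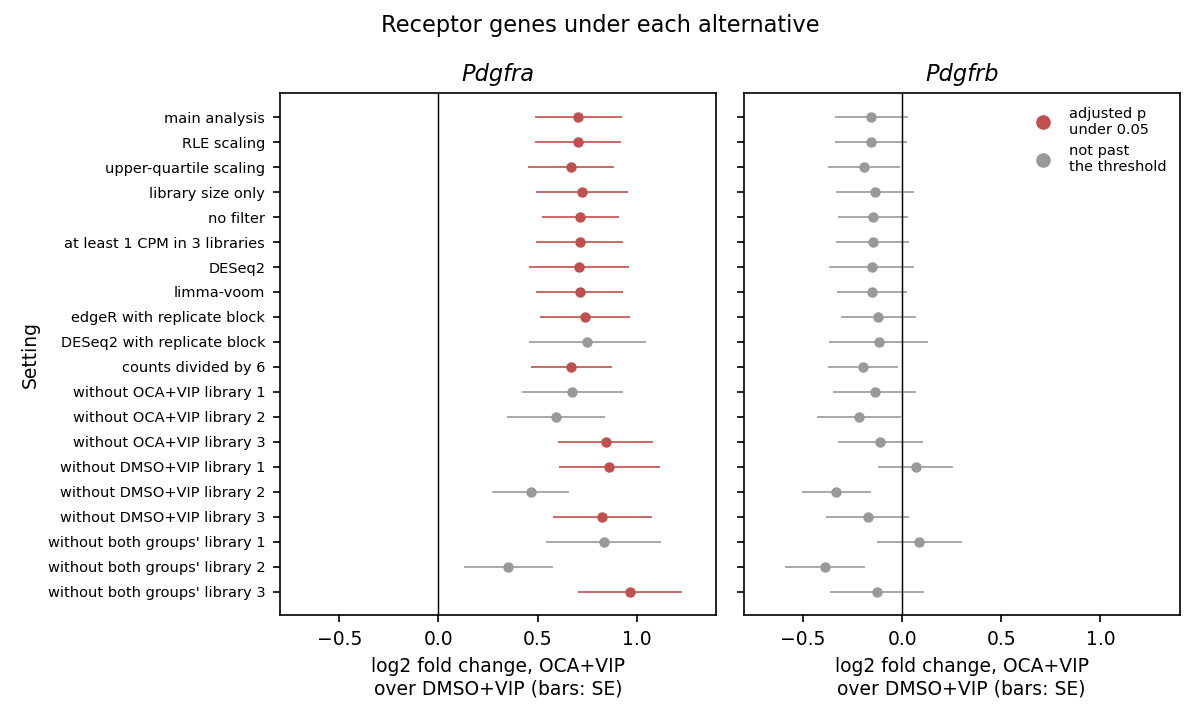
Log2 fold change of Pdgfra and Pdgfrb under the main analysis and 19 alternatives, with bars of 1 SE and red where the adjusted p was under 0.05. Pdgfra stays above 0 throughout, from 0.35 to 0.97, and passes in 13 alternatives, while Pdgfrb lies between -0.39 and 0.09 and passes in none.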

How the data were processed

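Per the deposited table, values are expected counts per gene over the exons of 1 RefSeq transcript, in steps of 0.5 and not adjusted for library size. Per the submitters' processing notes, HOMER, STAR, DESeq2 and the mm10 build were used, in roles and versions not given there. Columns were assigned to groups by name, and their numbers were not matched to the replicate letters. Counts were rounded to whole numbers and fitted in R 4.3.3 by edgeR 4.0.16, with limma 3.58.1: TMM, filterByExpr by group (minimum count 10, minimum total 15), quasi-likelihood F test on 4 residual degrees of freedom, Benjamini-Hochberg adjustment over all 11286 tested genes, threshold 0.05, two-sided. With information shared across genes, the test and the 95% intervals rested on 21.7 total degrees of freedom for Pdgfa, Pdgfra and Pdgfrb. The SE was the absolute log2 fold change divided by the square root of F. CPM use column totals of 2839110 to 9947970 counts. The receptor ratio used counts plus 0.5 per kb. Likeness used log2 CPM with a prior count of 2. The main fit was tried on simulated counts without steps of 6 and with larger changes than that of Pdgfra. That run does not cover the Pdgfra result. Alternatives were other scalings, filters and thresholds, DESeq2 1.42.0 on the same filtered genes, limma-voom, a replicate block, counts divided by 6 and left-out libraries. The 6 genes and all lists were chosen with earlier results of these data known. Named list genes are all those past the threshold and up to 4 others of smallest p. The results of some genes so chosen are not reported here. Promoters are from RefSeq (GRCm38.p6) and exon overlaps from GENCODE. Python 3.11.15, numpy 2.4.6, pandas 2.3.3, scipy 1.17.1 and matplotlib 3.10.9 were used.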

Additional observations from a re-analysis of the deposited data

How the results depend on the processing

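The called gene among the PDGF ligands and receptors, Pdgfra, kept its direction in all 19 alternatives and its call in 13. Other thresholds are not among the 19. Without library 2 of both groups, the log2 fold change of Pdgfra was 0.35 (edgeR adjusted p = 0.34), and its unadjusted p was not under 0.05 either. Whether column numbers pair the libraries is not known. Deviations of same-numbered libraries correlated at -0.04, -0.05 and 0.03, which shows no pairing but cannot exclude it with 3 libraries a group. With a replicate block, edgeR called 1118 genes and kept Pdgfra (adjusted p = 0.047), while DESeq2 called 862 genes and 0 of the 3 tested PDGF genes (Pdgfra adjusted p = 0.10), with 1 at an unadjusted p under 0.05. DESeq2 without the block called 1441 genes and Pdgfra. The receptor ratio difference was 0.88 within column numbers, with an exact p of 0.25, the smallest possible. At a threshold of 0.01, 648 of all genes were called, and Pdgfra, with an edgeR adjusted p of 0.037, was not among them. Leaving out libraries gave 433 to 1478 called genes, 0 to 1 called PDGF genes and 8 to 18 called genes of the 6 lists. Without OCA+VIP library 1, OCA+VIP library 3 or DMSO+VIP library 1, 737, 751 and 877 genes were called, and the cause was not tested. Shc1 lost its call in 10 of 19 alternatives, Mapk3 in 5, Csf1 and Pik3cb in 2 and Fos in 1. Depth limits Pdgfa, with at most 25.5 fragments a library, and the 3 ligand genes at 0.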
